A study of Rattus norvegicus with 3 samples.

Results

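Actin filament length and capping genes were followed in the rat soleus, a calf muscle rich in slow fibres that works against gravity, while the hind limbs were unloaded. The group of genes was given as 7 symbols, namely Acta1, Actc1, Neb, Nebl, Tmod1, Tmod4 and Lmod2, and every probe set annotated to one of these symbols alone was taken. This gave 8 of the 31042 probe sets and 5 of the 7 genes. Neb had 3 probe sets, Tmod1 had 2, and Acta1, Tmod4 and Lmod2 had 1 each. Actc1 had none of its own, since its 5 probe sets are annotated to Acta2 as well, and no probe set was annotated to Nebl.

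The muscles came from Sprague-Dawley rats of 8 weeks in 3 groups. Control rats, labelled with a time of 7 days, kept their hind limbs loaded, and the other rats were held at about 30 degrees by the taped tail, labelled HS for hind limb suspension, for 7 or 14 days. RNA of 4 rats was mixed in each group and run on 1 Affymetrix array. Every value below is therefore 1 array of 1 pool, without a measure of the spread between rats and without a test. No 14-day control was used here, and the source entry of the 14-day sample reads 7 days where its title and time entry read 14 days.

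In the sarcomere, the contractile unit of striated muscle, thin filaments are polymers of actin held at a set length. Skeletal alpha-actin (Acta1) is the adult isoform, and cardiac alpha-actin (Actc1) is the form of heart and of developing skeletal muscle. Nebulin (Neb) runs along the filament as a giant scaffold, and nebulette (Nebl) is its smaller relative, best known from heart. Tropomodulins (Tmod1 and Tmod4) cap the slow-growing, pointed end and stop growth there, whereas leiomodins such as Lmod2 bind near the same end, nucleate filaments and favour their elongation. CapZ caps the opposite, barbed end at the Z-disc.

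The sequences upstream of the annotated starts of 3 members are shown because Tmod1 and Lmod2 carried the largest differences, in opposite directions, and Acta1 is the main thin filament actin. They are the 250 bases before each start, from RefSeq on GRCr8, where all 7 symbols had an entry. Capitals mark matches to 4 motifs searched on both strands: the CArG box (the site of serum response factor), the MEF2 box, the MCAT element CATTCC and the TATA box TATAAA.
Upstream of Acta1, chr19:68784195-68784444, minus strand: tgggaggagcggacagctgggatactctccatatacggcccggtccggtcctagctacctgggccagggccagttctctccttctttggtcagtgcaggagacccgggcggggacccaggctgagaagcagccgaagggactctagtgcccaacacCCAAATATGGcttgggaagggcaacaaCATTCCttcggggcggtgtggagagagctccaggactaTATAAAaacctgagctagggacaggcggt
Upstream of Tmod1, chr5:65111812-65112061, plus strand: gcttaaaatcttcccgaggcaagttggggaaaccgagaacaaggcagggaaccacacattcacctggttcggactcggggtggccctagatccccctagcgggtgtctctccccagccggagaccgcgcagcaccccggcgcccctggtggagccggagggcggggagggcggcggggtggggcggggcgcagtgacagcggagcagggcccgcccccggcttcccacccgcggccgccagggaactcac
Upstream of Lmod2, chr4:54032724-54032973, plus strand: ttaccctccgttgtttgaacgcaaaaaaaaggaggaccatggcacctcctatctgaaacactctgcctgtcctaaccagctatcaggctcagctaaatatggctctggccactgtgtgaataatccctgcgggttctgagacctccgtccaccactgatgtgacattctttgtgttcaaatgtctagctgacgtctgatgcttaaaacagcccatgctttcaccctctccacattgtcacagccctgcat
The window of Acta1 held a CArG box from base -94 to base -85, counted back from the annotated start, an MCAT element from -67 to -62 and a TATA box from -29 to -24, with no overlap between them. None of the 4 motifs was matched in the window of Tmod1 or in that of Lmod2. Among 33469 upstream windows of this length, 501 held a CArG box, whereas 2.96% held a MEF2 box, 12.1% CATTCC and 12.9% TATAAA. A match describes letters only, and these windows may not hold the start used in muscle.

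The 3 arrays were scaled to a nearly equal trimmed mean signal, as described below, so likeness in it says nothing about their quality. Of 31099 probe sets, controls included, 53 had a value of 0 in control, 104 at 7 days and 134 at 14 days. Between 59.1% and 61.6% of probe sets reached the floor used here, a log2 signal of 6.01, and the highest signals were 15.94 in control, 16.03 at 7 days and 15.87 at 14 days. All 8 slow fibre markers with a probe set, among them Myh7 and Tnni1, reached the floor on each of the arrays. The only error available was technical, from the disagreement between the 2 brightest probe sets of the same gene. It leaves out any error that both probe sets share on an array, such as one from pooling or labelling. For genes of a mean log2 signal from 10 to 13, this technical SD was 0.27 for the log2 difference from control at 7 days, 0.28 for that at 14 days and 0.20 for 14 minus 7 days. At 13 and above the values were 0.19, 0.25 and 0.18, from 48 pairs of probe sets.

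Among the pointed-end caps, Tmod1 stood well above control on both suspended arrays and Tmod4 close to it. The brightest Tmod1 probe set had log2 signals of 12.04 (control), 13.51 (7 days) and 12.89 (14 days). The further Tmod1 probe set read 10.14, 11.49 and 11.05. Both were lowest in control and highest at 7 days. Tmod1 was thus 2.79-fold above control at 7 days by the brightest probe set and 2.54-fold by the further one, and 1.81-fold and 1.88-fold above it at 14 days. Its difference was 5.45 times the technical SD at 7 days and 3.03 times at 14 days. Of the 11233 measured genes, 53 had a larger difference than Tmod1 at 7 days and 602 at 14 days. From 7 to 14 days the Tmod1 signal was lower by a log2 difference of -0.62 in the brightest probe set and -0.43 in the further one, which left it between the control and the 7-day signal. In pooled tissue, a change in the number of cells of a type and a change in RNA per cell cannot be told apart.

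Tmod4, a tropomodulin isoform of skeletal muscle, had log2 signals of 14.33 (control), 14.55 (7 days) and 14.55 (14 days). Its differences from control were 0.21 at both times, or 1.14 and 0.84 times the technical SD. The Tmod4 difference was therefore about as large as the disagreement between probe sets of the same gene. At 7 days Tmod1 and Tmod4 lay at the 99.5 and 70.6 percentiles of all measured genes.

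Lmod2, the leiomodin that elongates thin filaments, was lower at 14 days. Its single probe set had log2 signals of 13.83 in control, 13.56 at 7 days and 12.51 at 14 days. Most of the decrease lay between the suspended arrays. At 7 days the difference from control was -0.28, or 1.48 times the technical SD, and at 14 days it was -1.32, or 5.22 times, which is 2.50-fold below control. Between 7 and 14 days Lmod2 was 2.06-fold lower. Only 102 measured genes lay further below control at 14 days, and 75 lay further below their 7-day signal. No second Lmod2 probe set was on hand to check these values.

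Tmod1 and Lmod2, which act at the same filament end, moved apart relative to control at both times. The Tmod1 difference exceeded that of Lmod2 by 1.76 at 7 days and 2.18 at 14 days on the log2 scale. The ratio of Tmod1 to Lmod2 signal was thus 3.38-fold and 4.52-fold its control value. With the further Tmod1 probe set the gaps were 1.62 and 2.23. The 7-day gap came mainly from Tmod1 and the 14-day gap more from Lmod2. These are changes of a ratio and not relative amounts of the transcripts, since signals of different probe sets cannot be compared as levels.

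**Figure D1:**
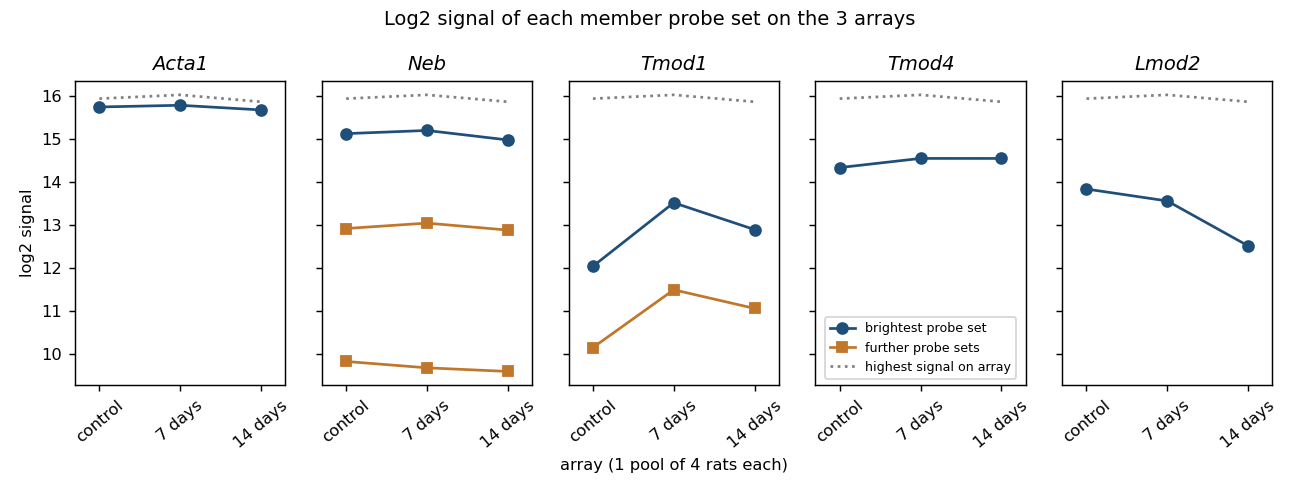
Log2 signal (vertical axis) of the 8 member probe sets for control and for 7 and 14 days of suspension, 1 panel per gene, with the highest signal of each array as a dotted line. Both Tmod1 probe sets peak at 7 days, Lmod2 is lowest at 14 days (12.51), and Acta1 runs just under the highest signal.

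The actin itself and its ruler differed little. Acta1 had log2 signals of 15.74 in control, 15.78 at 7 days and 15.68 at 14 days. Its differences from control were 0.04 and -0.07, both under the technical SD, and under quantile normalization the 14-day value turned to 0.01. The Acta1 probe set was among the brightest on each array, with 5 probe sets above it in control, 5 at 7 days and 4 at 14 days, and it lay within 0.25 of the highest signal. Of the 82 probe sets with a control signal of 15 or more, 2.44% were at least 1.5-fold from control at 7 days and 8.54% at 14 days, against 12.4% and 15.7% of the 3770 with control signals from 10 to 13. None of the 82 was as much as 1.5-fold higher. Grouping by the control signal itself can favour lower values on the other arrays. With control signals from 13 to 15, 13 probe sets were higher and 43 lower at 7 days. The count of the 82 thus does not decide whether signals are held down near the highest one. As Acta1 lay within 0.25 of it, an upward difference of the size seen for Tmod1 may not be visible on this probe set.

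Neb offers a check at 3 levels of brightness. The brightest Neb probe set read 15.12 in control, 15.20 at 7 days and 14.98 at 14 days. A second read 12.91, 13.04 and 12.88, and the dimmest 9.82, 9.67 and 9.59. All 3 stayed within a narrow range across the arrays. Differences from control were 0.07, 0.13 and -0.15 at 7 days and -0.15, -0.04 and -0.23 at 14 days, in that order of probe sets. The dimmer Neb probe sets, well away from the highest signals, were thus also at most 1.17-fold from control.

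Across the 5 members with a probe set, 1 was at least 1.5-fold above control at 7 days (Tmod1) and none as far below. The same distance was reached upwards by 9.04% and downwards by 9.15% of the 11233 measured genes. Among the 3367 genes with a mean log2 signal of 10 or above, as all members have, these shares were 6.00% and 5.44%. At 14 days 1 member was at least 1.5-fold higher (Tmod1) and 1 lower (Lmod2), against 11.7% and 9.25% of measured genes and 7.37% and 7.31% of the bright ones. Between 7 and 14 days 2 of 5 members, Tmod1 and Lmod2, were at least 1.5-fold lower and none higher, against 4.28% lower and 6.45% higher among measured genes and 2.55% and 2.38% among the bright ones. With each array centred on its median, the shares over all measured genes became 11.4% higher and 7.41% lower at 7 days, and 5.28% higher and 5.42% lower between the suspended arrays. The median log2 difference of the 5 members was 0.07, -0.07 and -0.22 in the 3 comparisons, against 0, 0.01 and 0 for all measured genes. All 5 members had a 14-day signal under their 7-day signal, although Tmod4 by a negligible amount, and the signs of Tmod4 and Acta1 turned under quantile normalization. The comparisons with control share the control array and are not independent of each other.

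**Figure D2:**
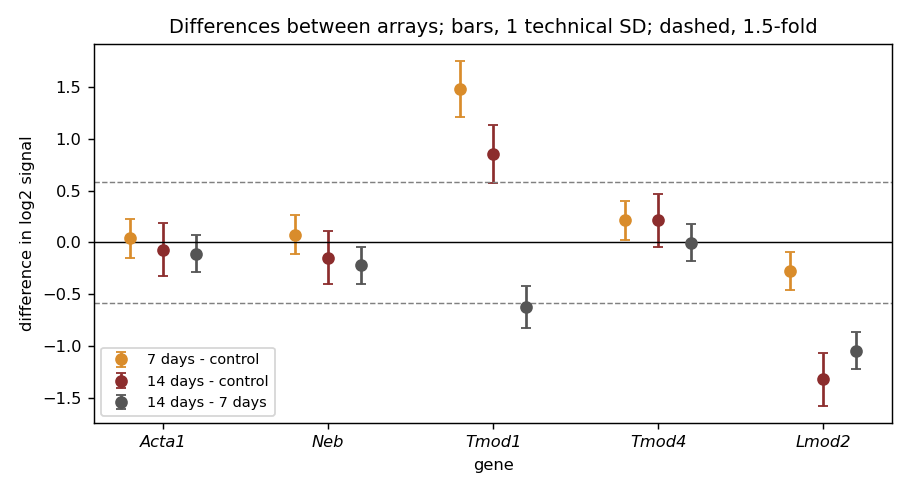
Difference in log2 signal (vertical axis) for the 5 member genes by their brightest probe set, for 7 days minus control, 14 days minus control and 14 minus 7 days. Bars are 1 technical SD, from pairs of probe sets of a gene, and dashed lines mark 1.5-fold: Tmod1 lies above the upper line against control at both times, and Lmod2 below the lower one at 14 days (-1.32).

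**Figure D3:**
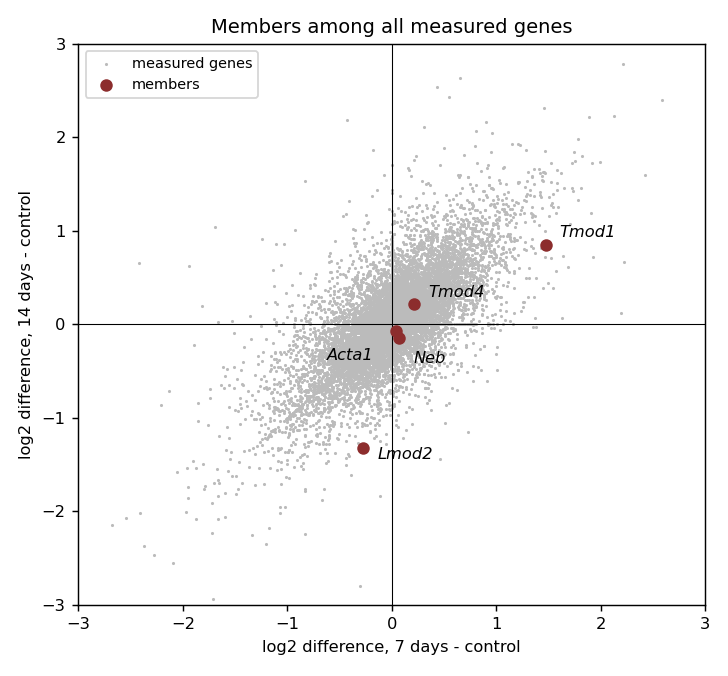
Log2 difference from control at 7 days (horizontal) and 14 days (vertical) for the measured genes, in grey, and the 5 members, in red. Axes stop at 3, which leaves out 14 genes: Tmod1 lies on the right edge of the cloud, Lmod2 at its lower edge, and Acta1, Neb and Tmod4 near the centre.

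Actc1 could not be given a level, since each of its 5 probe sets is annotated to Acta2, the smooth muscle actin, as well. The values of these probe sets therefore belong to neither gene alone. Of the 5, 4 reached the floor on each array. Their log2 signals were 14.46, 14.82 and 13.92 for the first in control, at 7 days and at 14 days, and 11.78, 12.25 and 10.93 for the dimmest of the 4. The remaining ones read 14.01, 14.01 and 13.61, and 14.01, 13.82 and 13.60. All 4 were lowest at 14 days. Their differences from control ran from -0.19 to 0.47 at 7 days and from -0.85 to -0.40 at 14 days, with medians of 0.18 and -0.48. From 7 to 14 days they ran from -1.32 to -0.22.

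The 1 probe set annotated to Acta2 alone read 10.27 in control, 10.08 at 7 days and 10.07 at 14 days, differences of -0.19 and -0.20. It differed by -0.01 between the suspended arrays, where the shared probe sets were all lower at 14 days. The other smooth muscle markers did not share one direction: Myh11 differed from control by 0.05 and 0.42 at 7 and 14 days, and Tagln by -0.68 and -0.28. Over the 7 smooth muscle markers the summed unlogged signal went from 27301 (control) to 25278 (7 days) and 24651 (14 days). Most of this sum is Des, the desmin gene, which skeletal fibres also express. The other 6 markers, a list trimmed after values were seen, summed to 7274, 6185 and 6958, lowest at 7 days. Of 8 heart muscle markers 6 were measured, 2 (Nppb and Myl7) missed the floor on all 3 arrays, and the summed signal was 3372, 3359 and 3220. Myh3, the embryonic myosin heavy chain, read 13.57, 14.30 and 12.41. No other myogenic marker lay above control at 7 days and below it at 14 days. Myod1 differed from control by 0.95 and 1.85, Myog by -1.26 and -1.02, and Cdh15 by 0.06 and 0.06. Myh8 differed by 3.83 and 1.39, with its control signal set to the floor. The part of any of these in the shared probe sets was not tested.

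**Figure D4:**
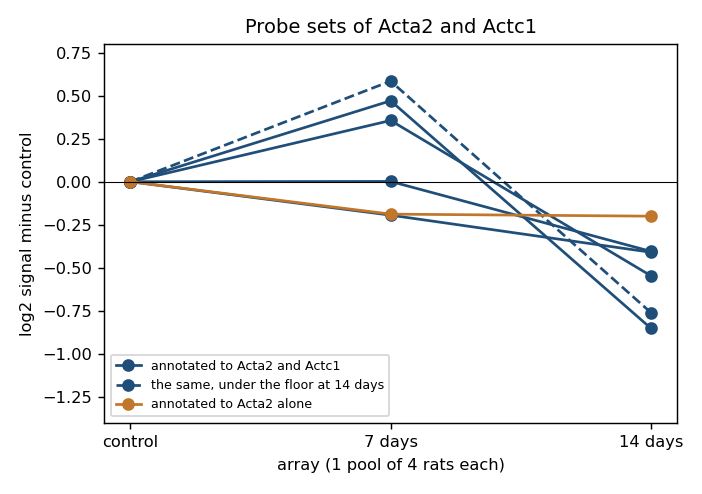
Log2 signal relative to control (vertical axis) on the 3 arrays for the 5 probe sets annotated to both Acta2 and Actc1, in blue, and the 1 annotated to Acta2 alone, in orange; the dashed one was under the floor at 14 days. The blue lines all end lowest at 14 days, while the orange line differs by -0.01 between 7 and 14 days.

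Fibre type markers moved beside these members. Of the 8 fast fibre markers with a probe set, 7 lay above control at both times, with a summed unlogged signal of 136758 (control), 224113 (7 days) and 294141 (14 days). The exception was Myh1, with -0.52 and -0.56. The 8 slow fibre markers summed to 397879, 381562 and 315766, and all 8 lay below control at 14 days. Only 1 of them, Tpm3 (-1.18), was at least 1.5-fold lower. Their control signals, from 15.21 to 15.81, were near the highest on the array, as that of Acta1 was. Tmod1 was highest at 7 days, whereas the fast fibre sum was highest at 14 days. Lmod2 and the slow fibre sum were both lowest at 14 days. Of 6 macrophage markers all 6 lay above control at both times, with sums of 4211, 6664 and 6145. These sums were highest at 7 days, as was Tmod1, and so were those of 5 adipocyte markers (22649, 30686 and 21985), 5 myogenic markers (17581, 23955 and 9380) and 2 red blood cell markers (20121, 24272 and 18350). Most of the myogenic sum is Myh3, and the list did not share 1 course. Myog was lowest at 7 days (log2 12.20, 10.94 and 11.19), Myod1 was highest at 14 days (8.14, 9.09 and 9.99), and Cdh15 differed by 0.06 at both times. Plin1, a lipid droplet protein of adipocytes, differed by 1.13 and 0.93, and Myh8, the perinatal myosin heavy chain, by 3.83 and 1.39, with its control signal set to the floor. Adipoq (0.61) and Cfd (0.34) also lay above control at 14 days. Fabp4, the brightest adipocyte marker, lay below it then (-0.28), and Lep was under the floor throughout. Most of the red blood cell sum is Hbb, and Alas2 read 7.99, 8.00 and 7.71. Sums of 7 fibroblast and tendon markers (97694, 109073 and 144782) were instead highest at 14 days. So were those of 2 nerve and Schwann cell markers (6202, 8216 and 11782.5) and 4 endothelium markers (5116, 4668 and 5545). Of the 7 fibroblast and tendon markers, 5 lay above control at 7 days and 6 at 14 days, with Scx below at both (-1.14 and -0.72). The endothelium markers were split. Kdr and Tek were highest at 14 days, but Pecam1 (9.77, 9.67 and 9.61) and Vwf (10.29, 10.04 and 10.01) were lowest then. The part of these cells and fibres in the member differences was not tested.

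Other genes of the actin filament were taken from lists of 8 roles, and 52 of the 53 with a probe set were measured. At 7 days 5 were at least 1.5-fold higher and 8 lower than control, with a median log2 difference of -0.03. At 14 days 6 were higher and 10 lower, with a median of 0.07. With arrays centred on their medians, 5 were higher and 5 lower at 7 days. Those no longer lower were the nearest to the threshold, Klhl40 (-0.62 as deposited), Diaph1 (-0.65) and Cap2 (-0.65). The shares, 13 and 16 of 52, can be set beside the 18.2% and 20.9% of all measured genes that were 1.5-fold apart in either direction. Between 7 and 14 days 2 of the 52 were 1.5-fold apart, against 10.7%.

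Among relatives of the members, the other actins and nebulin family genes stayed within 1.5-fold of control. Cytoplasmic gamma-actin (Actg1) differed by -0.02 at 7 days and 0.18 at 14 days, and enteric smooth muscle actin (Actg2) by 0.10 and 0.11. Nrap, a nebulin relative of myofibril assembly, read 14.87, 14.69 and 14.35 in control, at 7 days and at 14 days, lowest at 14 days as Lmod2 was. Lasp1, a small LIM and SH3 protein of the same family, differed by 0.20 and 0.47. Lmod3, the other leiomodin of skeletal muscle, read 12.56, 12.82 and 12.25, which is -0.30 from control at 14 days, and its further probe set gave -0.07 at 7 days and -0.44 at 14 days. Lmod1, the smooth muscle leiomodin, was 2.15-fold and 2.09-fold above control at low signals of 6.48, 7.59 and 7.55. Tmod3, the widely expressed tropomodulin, differed by 0.06 at 14 days. The 1.5-fold difference from control seen for Tmod1 was thus not seen in Tmod4 or Tmod3.

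At the barbed end, the CapZ subunits lay near control. Capza1 differed by 0.02 and 0.16 at 7 and 14 days, Capza2 by 0.25 and 0.20, and the brightest Capzb probe set by -0.11 and 0.10. Of the 8 measured genes of this list, 1 was 1.5-fold lower at both times, against 9.15% of all measured genes at 7 days and 9.25% at 14 days. It was Twf2, a twinfilin that binds actin monomers and capping protein, with 12.41 in control, 11.66 at 7 days and 11.53 at 14 days. Carmil1, a regulator of capping protein, was 1.53-fold and 1.73-fold higher at signals near the floor, 6.07 in control. Twf1 differed by 0.09 and 0.33.

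Genes of filament turnover differed in both directions. Of 14 measured, 2 were at least 1.5-fold higher and 1 lower at 7 days, and 2 higher and 2 lower at 14 days. The shares over all measured genes were 9.04% higher and 9.15% lower at 7 days, and 11.7% and 9.25% at 14 days. Cap2, an actin recycling protein of striated muscle, read 12.29, 11.64 and 11.44, or 1.57-fold and 1.81-fold below control, and its 2 further probe sets were also lower at both times. Pfn2, a profilin that binds actin monomers, differed by -0.58 and -0.70. Cotl1, an actin-binding protein related to cofilin, was 1.66-fold and 2.09-fold higher, and the cofilin phosphatase Ssh1 differed by 0.15 and 0.75. Gelsolin (Gsn), which severs and caps filaments, was 1.51-fold higher at 7 days and differed by 0.57 at 14 days. Cfl2, the muscle cofilin, read 15.10, 15.15 and 14.70, close to the brightest signals.

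Nucleation and elongation genes included the largest difference of all 8 lists by brightest probe set. Enah, which promotes elongation at barbed ends, read 11.96 in control, 9.99 at 7 days and 9.95 at 14 days. It was 3.92-fold and 4.03-fold below control, and a further probe set at lower signal gave -1.36 and -1.33. Among the 14 measured, 4 genes were at least 1.5-fold lower at each time: Enah and the formin genes Fhod3, Diaph1 and Fmnl1. Of all measured genes 9.15% were as far below control at 7 days and 9.25% at 14 days. Fhod3, a formin of striated muscle sarcomeres, differed by -0.90 and -0.68, and Diaph1 by -0.65 and -0.92. A further Diaph1 probe set gave -0.12 and -0.64, so its 7-day difference rests on 1 probe set. Daam2, another formin gene, was 1.89-fold higher at 14 days and differed by -0.01 at 7 days, at low signals from 6.91 to 7.84.

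Klhl40 encodes a muscle protein known to stabilise nebulin and the leiomodin Lmod3. It read 13.03, 12.41 and 12.36 and was 1.54-fold and 1.59-fold below control. Its relative Klhl41 differed by 0.01 and -0.10. Lmod3 itself differed by 0.26 at 7 days and -0.30 at 14 days. Neb transcript signals were near control at both times.

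The actin-sensing transcription genes were split. Srf, serum response factor, read 11.25, 11.20 and 11.08, with -0.06 and -0.18 from control, and its further probe set above the floor gave -0.24 and -0.77. Mrtfa, the cofactor of Srf that is released when actin polymerises, was 2.52-fold and 2.28-fold higher at signals of 7.92, 9.25 and 9.11. Abra, an actin-binding activator of Mrtf proteins in striated muscle, read 13.98, 13.68 and 13.26, or 1.64-fold lower at 14 days. Myocd, the cofactor of smooth and heart muscle, was 2.13-fold and 1.88-fold lower. Acta1, whose upstream window held the CArG box shown above, differed from control by 0.04 and -0.07 on its near-maximal probe set.

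**Figure D5:**
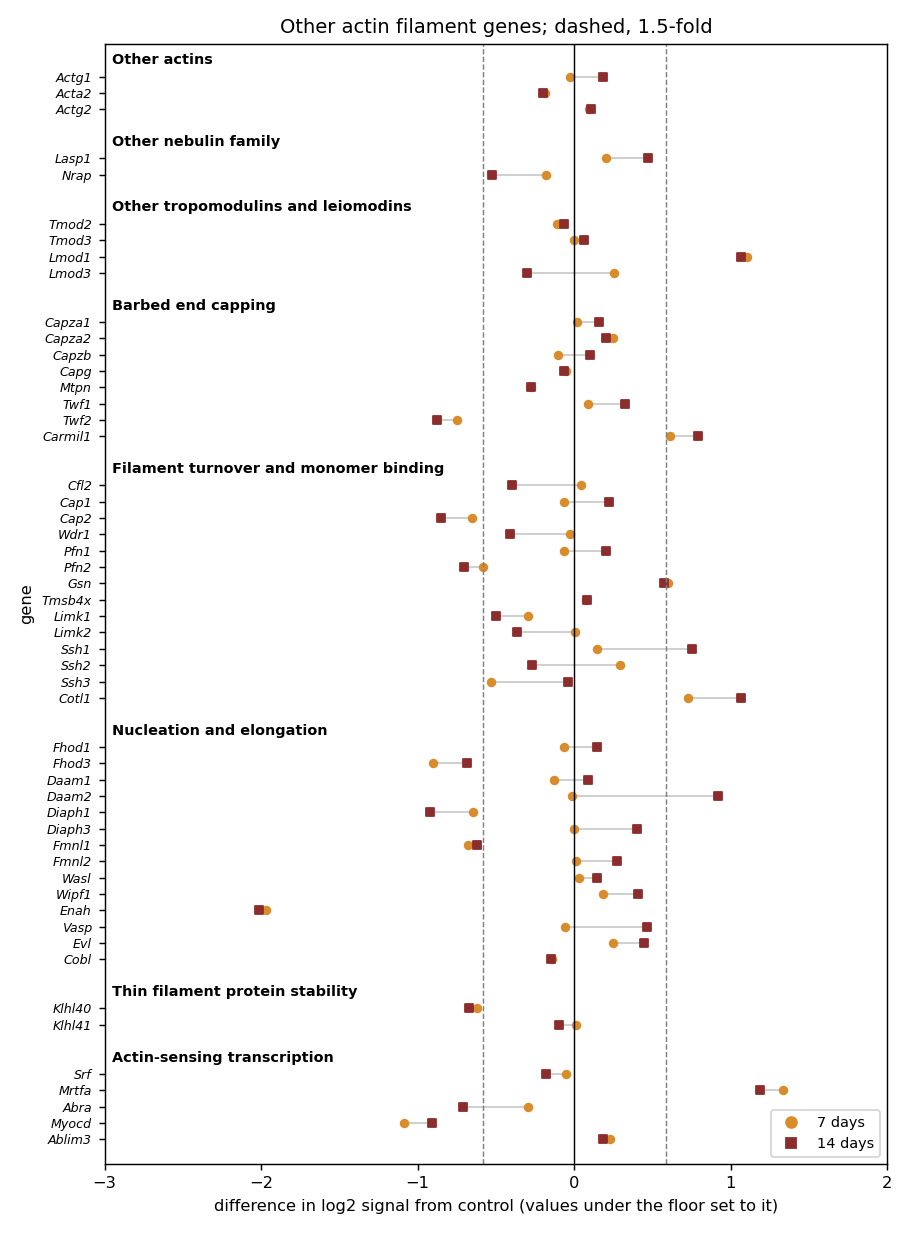
Difference in log2 signal from control (horizontal axis) at 7 days (circles) and 14 days (squares) for the 52 measured genes of the 8 lists, by their brightest probe set, with dashed lines at 1.5-fold. Enah lies furthest to the left at both times (-1.97 and -2.01), Mrtfa and Lmod1 to the right, and the CapZ genes Capza1, Capza2 and Capzb near 0.

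The genes most like Tmod1 in their differences from control at both times, by Euclidean distance over these 3 arrays among 9712 named genes at or above the floor throughout, were Arxes1 (distance 0.035), Pik3r1 (0.13) and Gstz1 (0.14). Pik3r1, the regulatory subunit of phosphoinositide 3-kinase, differed by 1.35 at 7 days and 0.82 at 14 days. Those most like Lmod2 were Pcp4 (distance 0.070), Ampd3 (0.15) and Rttn (0.15). Ampd3, an adenosine monophosphate deaminase, read 12.49, 12.15 and 11.30. With 2 differences from a shared control, such likeness describes these arrays only.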

How the data were processed

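The authors deposited log2 signals for each probe set of 3 arrays, scaled so that the mean unlogged signal, trimmed by 2% at each end, was nearly equal (500.25, 500.248 and 500.239), as read from the values. The summarisation program is not given in the sources used here, so its effect on low and near-maximal signals is not known. Values were used as deposited. The 57 Affymetrix controls were not used. Of the other 31042, 20826 are annotated to 1 gene, 436 to several and 9780 to none; only the first were used for genes, and 20758 of them were matched to current symbols by gene ID. The probe set with the highest mean signal stood for its gene. Signals under the 40th percentile of all values (log2 6.01) were set to that floor, and genes reaching it on any array counted as measured. Array differences were called at 1.5-fold, with no test. The calculation was tested on simulated data, with Python 3.11.15, numpy 2.4.6 and pandas 2.3.3.

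Members and lists were chosen with earlier results of these data known. Named were all members, up to 3 genes per list that lay furthest from control in either direction, and 3 nearest patterns per member at least 1.5-fold from control. Further named genes, such as Pfn2, Gsn, Cfl2, Fhod3, Fmnl1, Tmod3, Srf and the CapZ genes, were taken after their values were seen. Actin genes are alike in coding sequence, and probe sequences were not used here. Alternatives were other scalings, floors, probe set rules and a 2-fold threshold.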

Additional observations from a re-analysis of the deposited data

How the results depend on the processing

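The 5 member genes were recomputed under median centring, quantile normalization, no floor, a floor at the 50th percentile and the mean of all probe sets. The floor settings could not move any member, since all their signals lay far above both floors. The mean of all probe sets could not move Acta1, Tmod4 or Lmod2, which have 1 probe set each. With these fixed outcomes included, all 75 differences moved by less than 1 technical SD, the most by 0.16. No difference of at least 1.5-fold changed sign. The sign of 3 smaller ones did, 2 of Acta1 and 1 of Tmod4, all under quantile normalization. Between 7 and 14 days 2 members were 1.5-fold apart. This became 1 under quantile normalization and 1 with the mean of all probe sets, where Tmod1 differed by -0.57 and -0.53 and missed the threshold. At 2-fold, 1 member was apart from control at 14 days and 1 between the suspended arrays. Of the other actin filament genes, 4 were 2-fold apart at 7 days, 4 at 14 days and 0 between the suspended arrays, against 13, 16 and 2 at 1.5-fold; the last was 1 under quantile normalization. The other counts stayed within 1.5 times. Centring split the 3 other genes apart between 7 and 14 days into 1 higher and 2 lower, where 2 were higher and none lower as deposited. No paired analysis was possible because each group has 1 array, and for the same reason no array could be left out. Signals near the highest on the array, above all Acta1, limit what can be seen.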

Other observations

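A few actin filament genes gave different values by probe set. For Capzb, the beta subunit of CapZ, a dim further probe set read 4.15 in control, 6.48 at 7 days and 6.64 at 14 days, where the bright one read 12.75, 12.64 and 12.85. For Tmod2, the tropomodulin of nerve cells, all 3 probe sets lay near or under the floor of 6.01, and 1 of them read 5.45, 6.72 and 4.77. Values of Tmod2 therefore carry no direction here.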
